A study of Mus musculus with 12 samples.

Results

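Matrix metalloproteinases (Mmp genes), the related ADAMTS proteases (Adamts genes) and the tissue inhibitors of metalloproteinases (Timp genes) were described in bulk RNA-seq of mouse skin. They were taken as the protein-coding genes of the GENCODE M21 annotation with an Mmp number, an Adamts number or Timp1 to Timp4 as symbol and at least 10 counts over all libraries. The rule gave 45 genes, 22 Mmp, 19 Adamts and 4 Timp, of 53379 genes in the count tables, of which 49676 had a count. The 12 samples formed 4 groups of 3, all from mice aged 3 months of the strain C57BL/6 & B6D2. Nf1-KO mice had the genotype Prss56Cre,R26tdTom,Nf1flox/-, and control mice the genotype Prss56Cre,R26tdTom, so Cre and the tdTom reporter were present in every group. Skin of each genotype was sampled injured, 14 days after the injury, or uninjured. Cre is driven from Prss56, and the series title places the knockout in boundary cap cells, embryonic cells that give rise to Schwann cells among others. As the genotype is written, the null Nf1 allele is present in all cells of the Nf1-KO mice, whereas the floxed allele needs Cre. Loss of the floxed allele in Cre-expressing cells and the single null allele elsewhere therefore cannot be told apart in these groups. Whether the 3 samples of a group came from separate animals is not given in the labels, and the p-values measure the spread between these samples, which may be technical.

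Metalloproteinases are zinc enzymes that are made as inactive precursors and that cleave collagens, elastin, proteoglycans and other matrix proteins outside the cell once a pro-peptide is removed. ADAMTS proteases are secreted relatives that trim procollagens, cleave large proteoglycans such as versican, or act on fibrillin microfibrils. TIMP proteins bind the active site of these enzymes and block it. In skin wounds the enzymes come from keratinocytes at the wound edge, fibroblasts and white blood cells, and they take part in cell migration and in the remodelling of the new matrix.

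Library totals ran from 8817013 to 16809687 counts. Nf1 itself, with 8.14 to 17.2 raw CPM (the count scaled to the library total) in all libraries, had log2 fold changes of -0.31 (edgeR adjusted p = 0.884) in uninjured and -0.11 (adjusted p = 0.989) in injured Nf1-KO skin against control skin, and counts per gene do not show which allele they come from. Several features moved with injury in both genotypes. Xist, made from an inactive X chromosome, had 436 to 627 raw CPM in the 6 injured libraries and 0.709 to 2.95 in the 6 uninjured ones, and the Y-linked Ddx3y had 0 to 0.0595 raw CPM in injured and 68.2 to 93.3 in uninjured libraries. Sex and injury therefore cannot be told apart in any injury comparison. Receptor genes of the nose, 1410 in all, were taken as a set to measure background, on the assumption that skin makes little of most. They had 0.00225 to 0.0532 CPM per kb of exon in injured and 0.0937 to 0.329 in uninjured libraries. At that background, 14 of the 45 members had a median of less than 2 times the counts that their exon length alone would give in uninjured skin, and 10 had 2 to 5 times. Genes resembling ribosomal RNA took 1.75% to 4.21% of the counts of injured and 0.931% to 2.26% of those of uninjured libraries. Nf1-KO injured library 3 stood apart: of the 6 injured libraries it was the highest for 29 of the 45 members. It also had the highest nose receptor background of the injured libraries, 0.0532 CPM per kb, and the most genes with a count, 34592. That background was 0.00225 and 0.0177 CPM per kb in Nf1-KO injured libraries 1 and 2, and 0.00232 to 0.00639 in control injured libraries. Of the 6 uninjured libraries, control uninjured library 1 was the highest for 20 of the 45.

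Most members with a call were higher in injured skin. Of the 41 members that passed the filter on low counts, 24 rose and 2 fell in injured against uninjured Nf1-KO skin, 63.4% called against 37.4% of all 23635 genes tested. Among all genes, 19.1% were called higher and 18.4% lower in that comparison. In control skin 22 members rose and 3 fell, 61% called against 55.3% of all genes, with 22.8% of all genes called higher and 32.5% lower. A call means an adjusted p under 0.05 in edgeR's quasi-likelihood test with Benjamini-Hochberg adjustment over all genes tested, and fold changes are log2 of injured over uninjured with the standard error (SE). The median log2 fold change of the 41 members was 1.48 in Nf1-KO skin, against -0.09 over all genes, and 0.83 in control skin, against -0.21 over all genes. The injured and uninjured libraries did not overlap for 28 members in Nf1-KO skin, where 51.6% of all genes showed no overlap, and for 26 members in control skin, where 62.4% did. Of the genes called higher, 20 were called in both genotypes, which is 83.3% of the 24 in Nf1-KO skin and 90.9% of the 22 in control skin. Adamts6, Adamts7, Adamts16 and Adamts17 were called higher in Nf1-KO skin alone, and Mmp11 and Mmp24 in control skin alone. None of these was called in the test of the difference between the genotypes itself, which does not show equal responses. Mmp28 and Adamts14 were called lower in both, and Mmp8 in control skin. In bulk tissue, fewer cells of a type and less RNA per cell cannot be told apart.

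**Figure D1:**
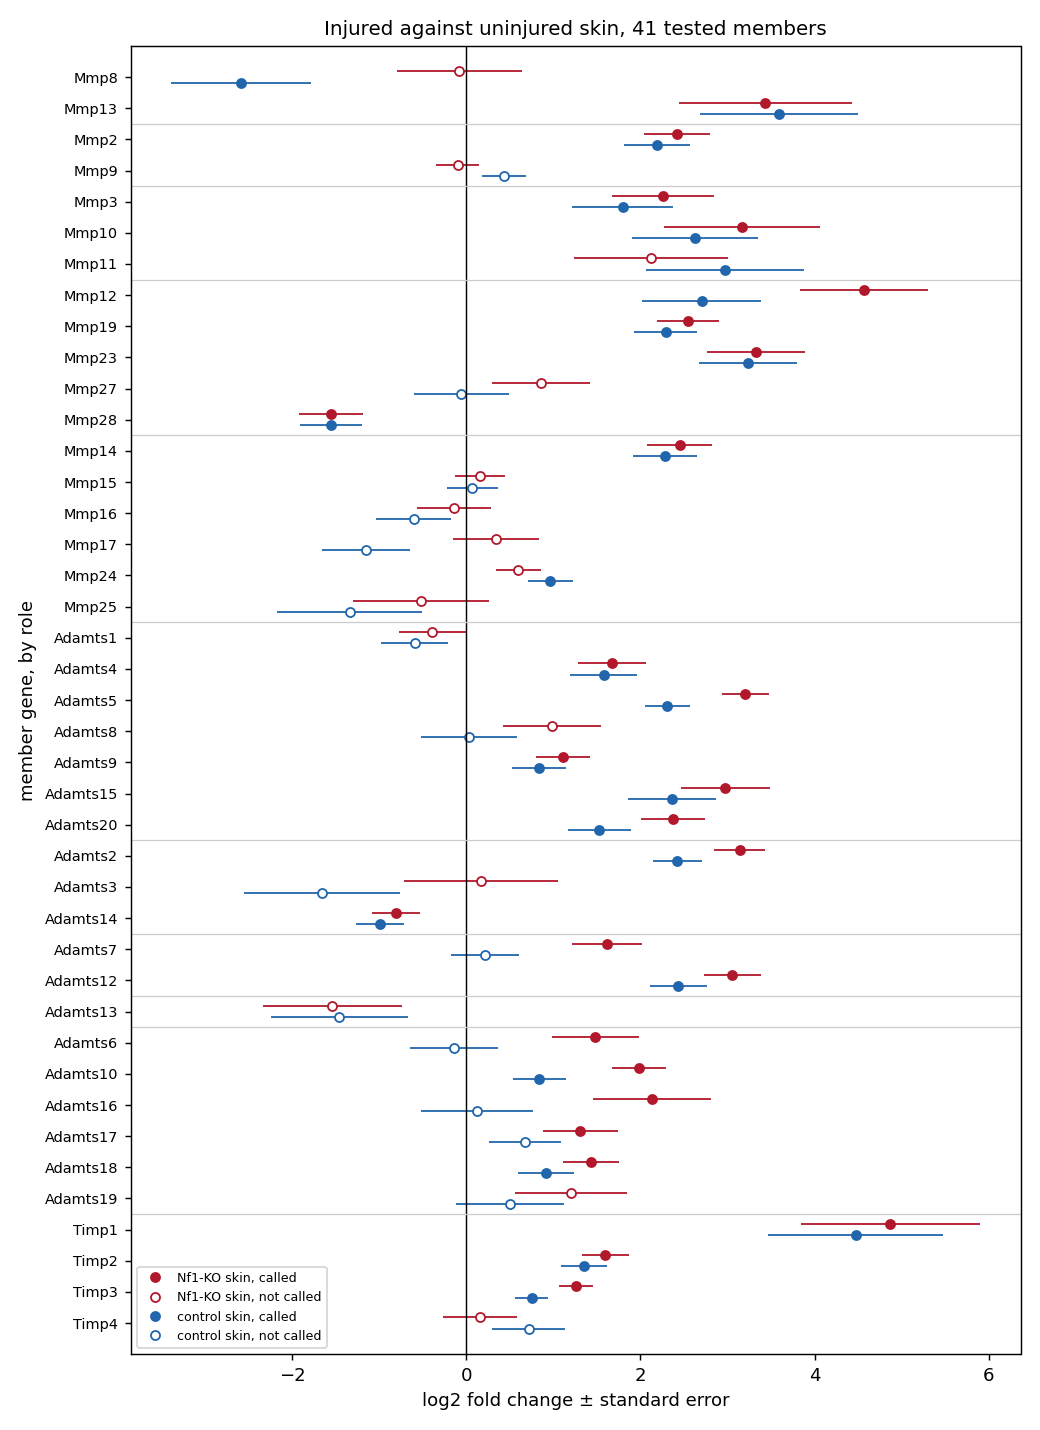
Log2 fold change of injured over uninjured skin with its standard error for the 41 tested members, grouped by role from collagenases at the top to inhibitors at the bottom, with Nf1-KO skin in red and control skin in blue and filled points for calls. Of the filled points, 24 red and 22 blue ones lie above 0, and 2 red and 3 blue ones lie below it.

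Of the 22 Mmp genes, 9 lie near each other on chromosome 9, from 7272514 to 7699585 (GRCm38), a stretch of 427 kb that holds collagenases, stromelysins and macrophage elastase. In order they are Mmp13, Mmp12, Mmp1b, Mmp3, Mmp10, Mmp8, Mmp27, Mmp20 and Mmp7. Mmp1a, a further collagenase, is not among the 22 and is not described. Mmp13, Mmp12, Mmp3 and Mmp10 rose after injury in both genotypes, whereas Mmp8 fell in control skin and Mmp27 was called in neither. The 250 bases before the RefSeq start (GRCm38.p6) are printed for the 4 of these 9 genes that rose. Each holds TGANTCA, beside which Mmp13, Mmp3 and Mmp10 hold TATAAA. Capitals mark TGANTCA and TATAAA, the letters of the TATA box. TGANTCA takes in TGACTCA and TGAGTCA, the sites of AP-1 (a dimer of Fos and Jun proteins that wounding is known to induce). N stands for any base, so TGAATCA and TGATTCA are matched too. The windows lie at chr9:7272264-7272513 for Mmp13, chr9:7445572-7445821 for Mmp3 and chr9:7502092-7502341 for Mmp10, and at chr9:7347124-7347373 for the second of the 2 Mmp12 starts listed, all on the plus strand. The window of the first Mmp12 start holds neither motif and is not printed.
Mmp13: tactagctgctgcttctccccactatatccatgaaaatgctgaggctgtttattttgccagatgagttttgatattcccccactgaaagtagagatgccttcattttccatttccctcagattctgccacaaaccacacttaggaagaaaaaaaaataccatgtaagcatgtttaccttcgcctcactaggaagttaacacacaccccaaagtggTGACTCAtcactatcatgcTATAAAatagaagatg
Mmp3: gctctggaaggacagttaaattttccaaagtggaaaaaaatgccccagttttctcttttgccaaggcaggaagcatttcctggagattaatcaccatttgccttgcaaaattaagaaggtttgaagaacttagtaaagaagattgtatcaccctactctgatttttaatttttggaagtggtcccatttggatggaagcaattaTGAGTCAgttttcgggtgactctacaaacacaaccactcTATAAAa
Mmp10: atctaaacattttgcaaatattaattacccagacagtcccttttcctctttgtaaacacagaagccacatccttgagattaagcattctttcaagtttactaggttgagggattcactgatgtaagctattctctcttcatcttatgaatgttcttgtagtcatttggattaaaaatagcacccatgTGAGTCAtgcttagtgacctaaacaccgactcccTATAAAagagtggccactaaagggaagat
Mmp12: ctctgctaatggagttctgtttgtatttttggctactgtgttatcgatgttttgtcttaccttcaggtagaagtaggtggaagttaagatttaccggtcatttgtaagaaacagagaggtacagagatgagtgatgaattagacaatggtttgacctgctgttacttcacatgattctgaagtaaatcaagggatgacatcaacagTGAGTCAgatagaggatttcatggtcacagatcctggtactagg

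A window was found for 31 of the 45 members, and TGANTCA, searched on both strands, was in the windows of 7 of them (22.6%), against 7.82% of 27025 genes with a window. All 7 are genes of the chromosome 9 stretch, namely Mmp13, Mmp12, Mmp1b, Mmp3, Mmp10, Mmp20 and Mmp7. TATAAA, also searched on both strands, was in the windows of 8 members (25.8%), against 14.3% of all genes. Both motifs stood in the same window, without overlap, for 6 members (19.4%), against 1.45% of all genes. The TGANTCA match ended 29 bases before the start in Mmp13, 40 in Mmp3, 57 in Mmp10 and 38 in Mmp12. TATAAA ended 11 bases before the listed start in Mmp13, 2 in Mmp3 and 24 in Mmp10. Mmp1b, Mmp20 and Mmp7 hold both motifs too and did not reach the filter on low counts, and the windows of Mmp8 and Mmp27 hold neither motif. Outside the stretch, Mmp14, Mmp23, Adamts2, Adamts9, Adamts12, Adamts18 and Adamts20 rose in both genotypes, and their windows hold neither motif. Timp1, Timp2 and Timp3 also rose in both genotypes, with neither motif in their windows. A match describes letters in the window and not binding in these samples, which was not measured.

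**Figure D2:**
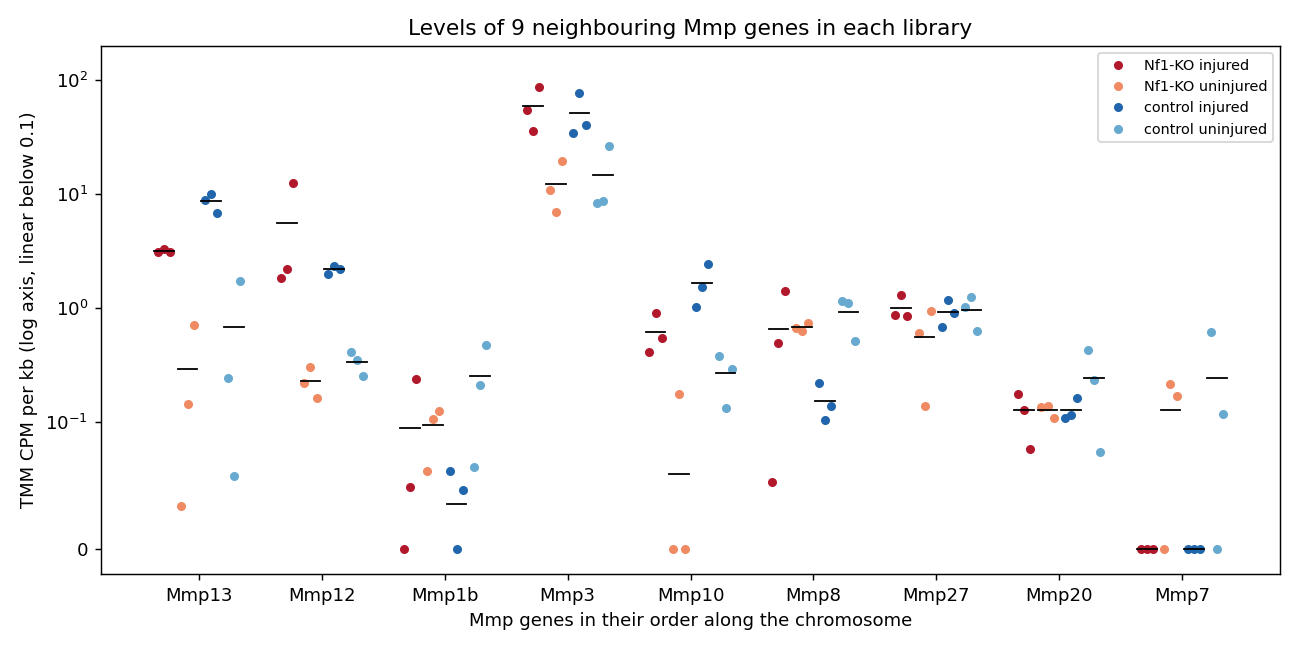
Levels of the 9 neighbouring Mmp genes of chromosome 9 in TMM-scaled CPM per kb of exon, on an axis that is logarithmic above 0.1 and linear below, with 1 point per library and a line at each group mean, in the order of the genes along the chromosome. Mmp3 is the highest of the 9, Mmp13, Mmp12 and Mmp10 lie low in uninjured skin, and Mmp7 has no count in any injured library.

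Among the collagenases, which cut fibrillar collagen, Mmp13 rose in both genotypes, and Mmp8 fell in control skin. Mmp13 (ENSMUSG00000050578, chromosome 9, 7272514 to 7283331), collagenase 3, had 8.27, 8.89 and 8.26 CPM after TMM scaling (the unit of all levels below) in Nf1-KO injured libraries 1 to 3, against 0.0896, 0.383 and 1.90 CPM in Nf1-KO uninjured libraries 1 to 3. In control skin it had 24.0, 26.8 and 18.4 CPM when injured, against 0.658, 0.153 and 4.67 CPM when uninjured. Every injured library was above every uninjured one, and the uninjured libraries numbered 3 were the highest of their groups. The log2 fold change was 3.43 ± 0.99 (adjusted p = 0.0221) in Nf1-KO skin and 3.59 ± 0.91 (adjusted p = 0.00743) in control skin. The call in Nf1-KO skin was lost without Nf1-KO uninjured library 1 (2.91) or 2 (3.07), or Nf1-KO injured library 1 (3.50) or 2 (3.40). Without the uninjured library 3 of the same genotype the log2 fold change was 5.08 in Nf1-KO and 5.97 in control skin.

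Mmp8 (ENSMUSG00000005800, chromosome 9, 7558456 to 7568485), the collagenase that neutrophils store in granules, had 0.128, 1.199 and 3.44 CPM in Nf1-KO injured skin, against 1.61, 1.53 and 1.81 CPM in Nf1-KO uninjured skin. It had 0.533, 0.253 and 0.334 CPM in control injured skin, against 2.82, 2.69 and 1.26 CPM in control uninjured skin. The Nf1-KO injured libraries were scattered from the lowest to the highest of the 12, while the control injured libraries all lay below the control uninjured ones. Mmp8 had a log2 fold change of -0.08 ± 0.72 (adjusted p = 0.94) in Nf1-KO skin and -2.59 ± 0.80 (adjusted p = 0.0123) in control skin. Neutrophil markers moved the other way in control skin, where 4 of 8 tested rose and none fell. In Nf1-KO skin, where Mmp8 was not called, 5 of the 8 rose and none fell, with Ly6g at 0 CPM in all injured libraries. Their summed level was 414 to 627 CPM in Nf1-KO injured and 3.94 to 48.2 CPM in Nf1-KO uninjured skin, and 404 to 728 CPM in control injured and 3.38 to 20.2 CPM in control uninjured skin, most of it S100a8 and S100a9, which keratinocytes also make. Mmp1b, a mouse relative of interstitial collagenase, had 0 to 0.344 CPM in injured and 0.0896 to 0.694 CPM in uninjured libraries and was not tested.

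The gelatinases, which cut denatured collagen and the collagen of basement membranes, differed in that Mmp2 rose and Mmp9 was not called. Mmp2 (ENSMUSG00000031740, chromosome 8, 92827291 to 92853420), gelatinase A, had 343, 236 and 549 CPM in Nf1-KO injured skin, against 74.7, 46.6 and 89.4 CPM in Nf1-KO uninjured skin. In control skin the levels were 176, 513 and 358 CPM when injured, against 73.1, 75.3 and 81.1 CPM when uninjured. No injured library reached down to an uninjured one. Mmp2 rose 5.35-fold in Nf1-KO skin, a log2 fold change of 2.42 ± 0.38 (adjusted p = 0.000266), and 4.56-fold in control skin, 2.19 ± 0.38 (adjusted p = 0.000422). Mmp9 (ENSMUSG00000017737, chromosome 2, 164940780 to 164955850), gelatinase B of keratinocytes and white blood cells, had 18.5, 16.9 and 25.0 CPM in Nf1-KO injured skin, against 24.9, 21.1 and 18.7 CPM in Nf1-KO uninjured skin. In control skin it had 44.6, 29.5 and 21.9 CPM when injured, against 27.3, 22.7 and 21.1 CPM when uninjured. The groups overlapped in both genotypes, and the log2 fold changes of -0.10 ± 0.25 (adjusted p = 0.771) in Nf1-KO and 0.43 ± 0.25 (adjusted p = 0.147) in control skin were not called.

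The stromelysins cleave many matrix proteins other than fibrillar collagen. Mmp3 (ENSMUSG00000043613, chromosome 9, 7445822 to 7455975), stromelysin 1, had 98.5, 64.8 and 157 CPM in Nf1-KO injured skin, against 19.6, 12.5 and 35.0 CPM in Nf1-KO uninjured skin, and 62.6, 140.2 and 73.3 CPM in control injured skin, against 15.2, 15.8 and 48.1 CPM in control uninjured skin. Injured libraries were all higher than uninjured ones, and the uninjured libraries numbered 3 were again the highest of their groups. Mmp3 was the most abundant of them per length, with a mean of 59.4 CPM per kb in Nf1-KO injured and 12.4 in Nf1-KO uninjured skin, and 51.1 in control injured and 14.7 in control uninjured skin. It rose by a log2 fold change of 2.26 ± 0.59 (adjusted p = 0.0146) in Nf1-KO skin, a call lost without Nf1-KO uninjured library 1 (2.15) or 2 (1.94). In control skin the rise was 1.80 ± 0.58 (adjusted p = 0.0238), not called without control uninjured library 1 (1.63) or 2 (1.54) or control injured library 2 (1.39), and 2.68 without control uninjured library 3. Mmp10 (ENSMUSG00000047562, chromosome 9, 7502352 to 7510240), stromelysin 2, is known from keratinocytes at the wound edge. It had 0.705, 1.55 and 0.947 CPM in Nf1-KO injured skin, against 0, 0.306 and 0 CPM in Nf1-KO uninjured skin, and 1.78, 2.66 and 4.21 CPM in control injured skin, against 0.658, 0.230 and 0.505 CPM in control uninjured skin. Injured libraries were higher in both genotypes without overlap, and only Nf1-KO uninjured library 2 of its group had counts, 4 in all. The log2 fold change was 3.17 ± 0.89 (adjusted p = 0.012) in Nf1-KO and 2.63 ± 0.72 (adjusted p = 0.00624) in control skin, and the first was 6.78 without that library, where the uninjured group was at 0 and the value is no measure of size.

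Mmp11 (ENSMUSG00000000901, chromosome 10, 75923222 to 75936496), stromelysin 3, differs from most Mmp enzymes in being activated inside the cell by furin. It had 52.2, 67.9 and 60.8 CPM in Nf1-KO injured skin, against 5.73, 2.91 and 33.1 CPM in Nf1-KO uninjured skin. The control skin values were 69.0, 118 and 64.4 CPM when injured, against 6.68, 4.14 and 20.9 CPM when uninjured. Injured and uninjured libraries did not overlap in either genotype, although the uninjured libraries numbered 3 stood well above the other uninjured ones. Mmp11 had a log2 fold change of 2.12 ± 0.88 (adjusted p = 0.0884) in Nf1-KO skin, which was not called, and 2.97 ± 0.91 (adjusted p = 0.0214) in control skin. The control call was lost without control uninjured library 1 (2.84) or 2 (2.59) or control injured library 2 (2.67), and without control uninjured library 3 the value was 4.07.

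Of the other secreted Mmp genes, Mmp12 (ENSMUSG00000049723, chromosome 9, 7344381 to 7369499), the elastase of macrophages, rose in both genotypes. Its levels were 13.2, 16.01 and 91.0 CPM in Nf1-KO injured skin, against 1.61, 2.22 and 1.17 CPM in Nf1-KO uninjured skin, and 14.6, 17.2 and 15.9 CPM in control injured skin, against 3.01, 2.53 and 1.83 CPM in control uninjured skin. The 5 injured libraries other than Nf1-KO injured library 3 lay close together, and that library lay several times higher. Mmp12 rose by 4.56 ± 0.74 (adjusted p = 0.000886) in Nf1-KO skin and by 2.70 ± 0.68 (adjusted p = 0.00672) in control skin on the log2 scale, and by 3.12 in Nf1-KO skin without Nf1-KO injured library 3. Macrophage markers moved with it: 8 of 8 rose in Nf1-KO and 7 of 8 in control skin, none was at 0, and the same Nf1-KO library 3 had the highest sum. Their summed level was 794 to 1679 CPM in Nf1-KO injured and 200.1 to 265 CPM in Nf1-KO uninjured skin, and 746 to 887 CPM in control injured and 134 to 248 CPM in control uninjured skin. The part of macrophage number in the Mmp12 result was not tested.

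Mmp23 (ENSMUSG00000029061, chromosome 4, 155650655 to 155653384), an Mmp anchored by its own signal sequence and released by furin-like enzymes, had 46.1, 33.2 and 75.9 CPM in Nf1-KO injured skin, against 3.58, 2.30 and 9.67 CPM in Nf1-KO uninjured skin. It had 30.4, 51.6 and 41.4 CPM in control injured skin, against 2.63, 2.99 and 7.26 CPM in control uninjured skin. Every injured library was above every uninjured one, and the uninjured libraries numbered 3 were again the highest of their groups. The rise was 10.03-fold in Nf1-KO skin, log2 3.33 ± 0.57 (adjusted p = 0.00115), and 9.41-fold in control skin, log2 3.23 ± 0.56 (adjusted p = 0.000884), or 4.17 in Nf1-KO and 3.97 in control skin without the uninjured library 3. Mmp19 (ENSMUSG00000025355, chromosome 10, 128790910 to 128800824), which cleaves basement membrane proteins, had 30.9, 17.8 and 59.6 CPM in Nf1-KO injured skin, against 6.54, 4.44 and 7.59 CPM in Nf1-KO uninjured skin. Control skin had 20.3, 28.2 and 27.6 CPM when injured, against 5.27, 4.68 and 5.62 CPM when uninjured. The groups did not overlap, with rises of 2.54 ± 0.36 (adjusted p = 6.92e-05) in Nf1-KO and 2.29 ± 0.36 (adjusted p = 0.000158) in control skin on the log2 scale. Exons of Tmem198b on the other strand cover 22.3% of the Mmp19 exons, and the libraries do not mark the strand.

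Mmp28 (ENSMUSG00000020682, chromosome 11, 83440768 to 83463071), epilysin of keratinocytes, was the Mmp gene that fell in both genotypes. It had 3.21, 4.51 and 3.87 CPM in Nf1-KO injured skin, against 6.99, 9.35 and 17.7 CPM in Nf1-KO uninjured skin, and 3.47, 4.24 and 5.28 CPM in control injured skin, against 17.9, 8.83 and 11.7 CPM in control uninjured skin. All 6 injured libraries lay below all 6 uninjured ones. Mmp28 fell, with a log2 fold change of -1.55 ± 0.36 (adjusted p = 0.00389) in Nf1-KO and -1.55 ± 0.36 (adjusted p = 0.00216) in control skin. Basal keratinocyte markers moved the same way, with 6 of 7 lower in each genotype and none at 0. Their summed level was 7640.5 to 10724 CPM in Nf1-KO injured and 18909 to 25139 CPM in Nf1-KO uninjured skin, and 12641 to 14070.1 CPM in control injured and 15226 to 21244 CPM in control uninjured skin, and their part in the Mmp28 result was not tested. Mmp27, with 1.51 to 2.89 CPM in injured and 0.306 to 2.76 CPM in uninjured libraries, was not called in either. Mmp7 (matrilysin), Mmp20 (enamelysin of teeth) and Mmp21 were not tested, and their highest values in any library were 0.658, 1.41 and 1.69 CPM, all in control uninjured library 1, which had the highest nose receptor background.

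The membrane-type Mmp genes encode enzymes held at the cell surface. Of these, 1 of 6 was called higher in Nf1-KO skin, against 19.1% of all genes tested, and 2 of 6 in control skin, against 22.8%. Mmp14 (ENSMUSG00000000957, chromosome 14, 54431612 to 54445364), MT1-MMP, cuts collagen at the cell surface and activates the Mmp2 precursor with the help of Timp2. Its levels were 369.9, 240.2 and 687 CPM in Nf1-KO injured skin, against 73.4, 48.6 and 115 CPM in Nf1-KO uninjured skin, and 318, 425 and 369 CPM in control injured skin, against 68.8, 63.5 and 96.5 CPM in control uninjured skin. No library of injured skin overlapped with uninjured skin. Mmp14 rose 5.47-fold in Nf1-KO skin, log2 2.45 ± 0.37 (adjusted p = 0.000178), and 4.86-fold in control skin, log2 2.28 ± 0.37 (adjusted p = 0.000259). Mmp24 (ENSMUSG00000027612, chromosome 2, 155775342 to 155818366), MT5-MMP, had 20.4, 16.9 and 23.1 CPM in Nf1-KO injured skin, against 12.5, 8.66 and 18.8 CPM in Nf1-KO uninjured skin. In control skin it had 19.5, 17.2 and 15.97 CPM when injured, against 9.22, 8.21 and 9.47 CPM when uninjured. The groups overlapped in Nf1-KO skin and not in control skin, and the log2 fold change was 0.60 ± 0.26 (adjusted p = 0.075) in Nf1-KO and 0.97 ± 0.26 (adjusted p = 0.00536) in control skin. The other transmembrane forms, Mmp15 and Mmp16, and the forms with a lipid anchor, Mmp17 and Mmp25, were not called, with log2 fold changes of 0.16, -0.14, 0.34 and -0.52 in Nf1-KO and 0.07, -0.61, -1.15 and -1.34 in control skin.

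**Figure D3:**
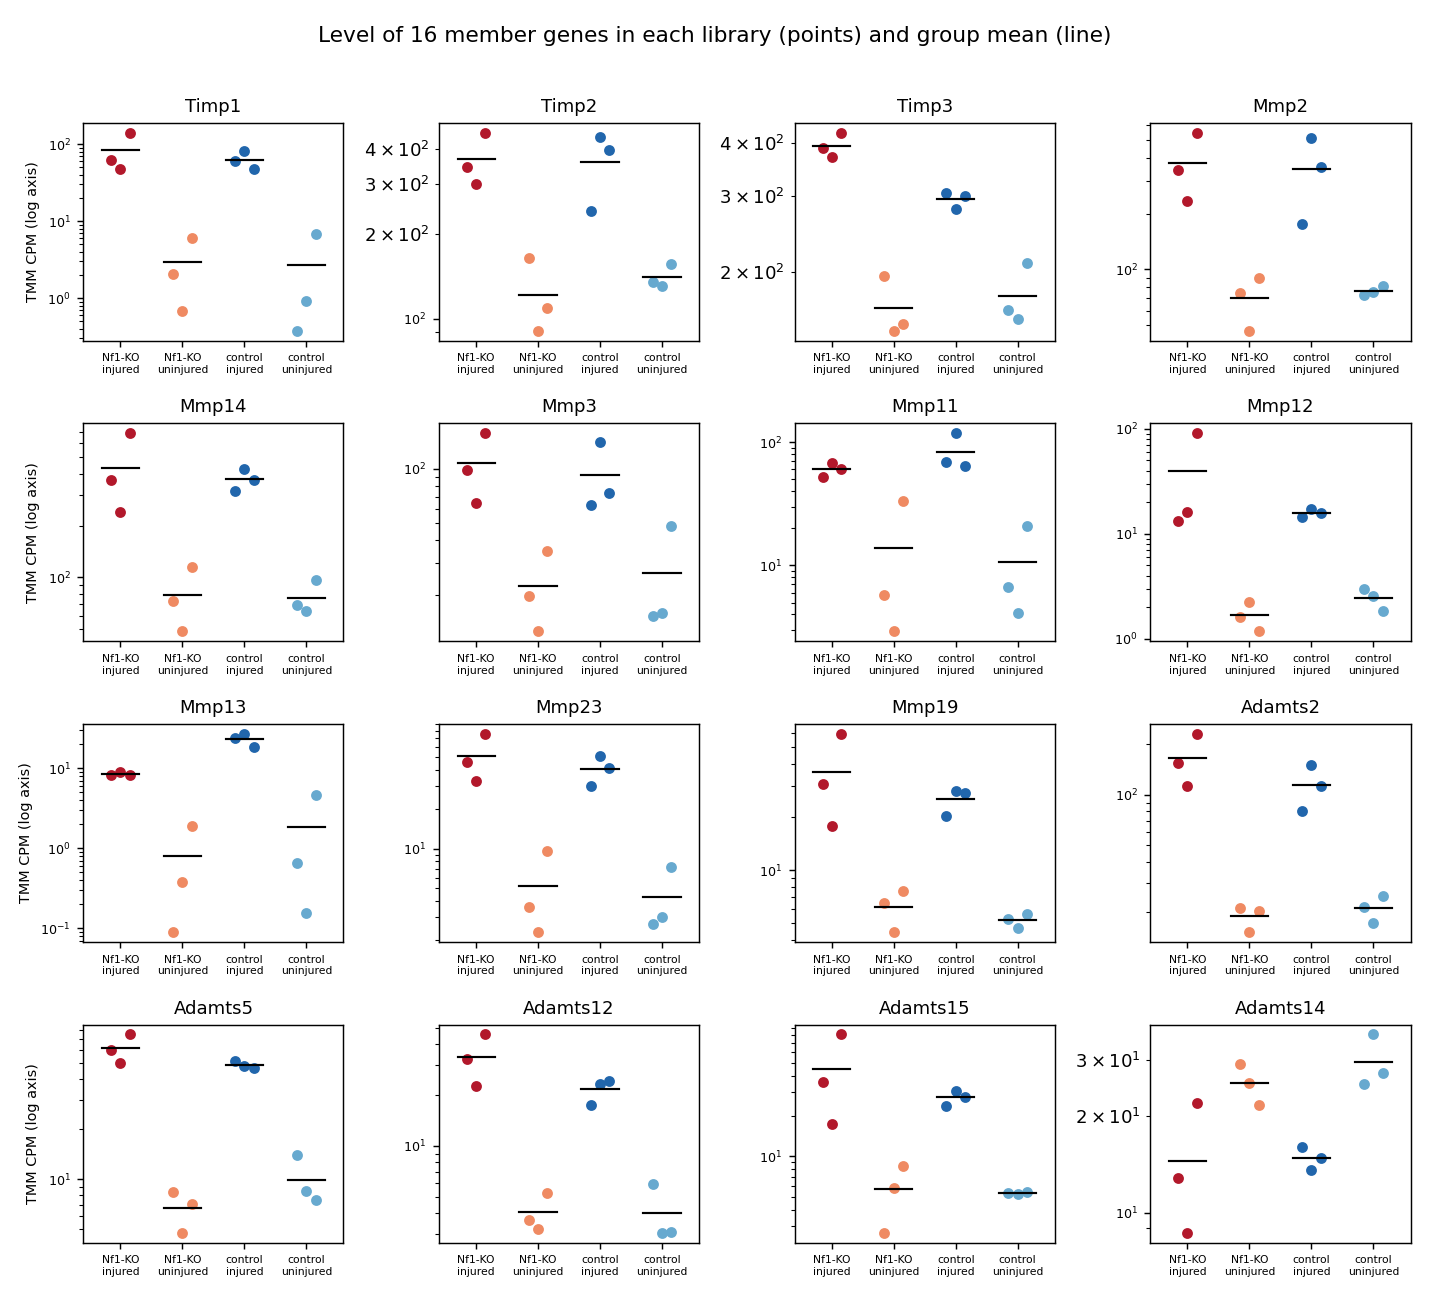
Level of 16 members in TMM-scaled CPM on a logarithmic axis, with 1 point per library and a line at the mean of each group of 3, in the order Nf1-KO injured, Nf1-KO uninjured, control injured and control uninjured. All injured libraries lie above all uninjured ones for 15 of the genes, Timp1 having the largest ratio of group means in each genotype, and Adamts14 is lower in injured skin with an overlap in Nf1-KO skin.

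Among the 7 Adamts genes whose enzymes cleave large proteoglycans such as versican and aggrecan, 5 rose in each genotype, namely Adamts4, Adamts5, Adamts9, Adamts15 and Adamts20. Of all genes tested, 19.1% were called higher in Nf1-KO and 22.8% in control skin. Adamts5 (ENSMUSG00000022894, chromosome 16, 85856173 to 85901828), a main versican and aggrecan protease, had 60.1, 50.5 and 74.8 CPM in Nf1-KO injured skin, against 8.33, 4.75 and 7.05 CPM in Nf1-KO uninjured skin. It had 51.9, 48.1 and 46.8 CPM in control injured skin, against 13.9, 8.44 and 7.45 CPM in control uninjured skin. All injured libraries stood far above the uninjured ones, with little spread among the control injured libraries. The rise was 9.22-fold in Nf1-KO skin, log2 3.20 ± 0.27 (adjusted p = 5.2e-07), and 4.95-fold in control skin, log2 2.31 ± 0.26 (adjusted p = 8.71e-06). Adamts15 (ENSMUSG00000033453, chromosome 9, 30899155 to 30922452), another versican protease, had 35.7, 17.3 and 81.2 CPM in Nf1-KO injured skin, against 2.69, 5.82 and 8.49 CPM in Nf1-KO uninjured skin. Control skin had 23.9, 30.6 and 27.9 CPM when injured, against 5.36, 5.22 and 5.43 CPM when uninjured. The groups did not overlap, and Nf1-KO injured library 3 was the highest of all. Adamts15 rose by 2.98 ± 0.51 (adjusted p = 0.0009) on the log2 scale in Nf1-KO skin, by 2.26 without Nf1-KO injured library 3, and by 2.36 ± 0.50 (adjusted p = 0.0021) in control skin.

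Adamts20, known from belted mice, which lack pigment cells in part of the coat, rose by 2.37 ± 0.37 (adjusted p = 0.000154) in Nf1-KO and by 1.52 ± 0.36 (adjusted p = 0.00243) in control skin on the log2 scale. Adamts4, another aggrecan protease, rose by 1.67 ± 0.39 (adjusted p = 0.00397) in Nf1-KO and 1.58 ± 0.39 (adjusted p = 0.00309) in control skin. Adamts9 rose by 1.11 ± 0.31 (adjusted p = 0.0118) in Nf1-KO skin, a call lost without Nf1-KO uninjured library 1 (0.90). In control skin Adamts9 rose by 0.83 ± 0.31 (adjusted p = 0.0316), not called without control uninjured library 3 (0.70) or control injured library 1 (0.80) or 2 (0.82). Adamts1, the member of this group with the highest level per length in uninjured skin, had 54.6, 47.5 and 56.5 CPM in Nf1-KO injured skin, against 63.5, 61.4 and 83.03 CPM in Nf1-KO uninjured skin, and 54.5, 42.9 and 48.0 CPM in control injured skin, against 28.9, 58.8 and 131 CPM in control uninjured skin. The control uninjured libraries held both the highest and the lowest value, the Nf1-KO injured libraries all lay below the Nf1-KO uninjured ones, and the log2 fold changes of -0.39 ± 0.39 (adjusted p = 0.439) in Nf1-KO and -0.59 ± 0.39 (adjusted p = 0.209) in control skin were not called. Adamts8 was not called either, at 0.613 to 3.10 CPM in all libraries.

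The 3 procollagen N-proteinases, which remove the N-terminal pro-peptide of fibrillar collagens, included a gene that rose, a gene that fell and a gene without a call. Adamts2 (ENSMUSG00000036545, chromosome 11, 50602084 to 50807573), the main enzyme of this kind in skin, had 156, 113 and 231 CPM in Nf1-KO injured skin, against 21.2, 15.2 and 20.3 CPM in Nf1-KO uninjured skin. It had 80.2, 150.0 and 113 CPM in control injured skin, against 21.6, 17.3 and 25.0 CPM in control uninjured skin. The lowest injured library was above 3 times the highest uninjured one. Adamts2 rose 8.80-fold in Nf1-KO skin, log2 3.14 ± 0.29 (adjusted p = 1.09e-06), and 5.37-fold in control skin, log2 2.42 ± 0.28 (adjusted p = 1.2e-05). Adamts14 (ENSMUSG00000059901, chromosome 10, 61197112 to 61273438), its close relative, had 12.9, 8.68 and 22.0 CPM in Nf1-KO injured skin, against 29.0, 25.4 and 21.7 CPM in Nf1-KO uninjured skin. In control skin it had 16.1, 13.6 and 14.8 CPM when injured, against 25.2, 35.9 and 27.2 CPM when uninjured. The control groups did not overlap, while Nf1-KO injured library 3 lay just above the lowest Nf1-KO uninjured library. Adamts14 fell, with a log2 fold change of -0.81 ± 0.28 (adjusted p = 0.0305) in Nf1-KO and -0.99 ± 0.28 (adjusted p = 0.00657) in control skin. The Nf1-KO call was lost without Nf1-KO uninjured library 1 (-0.74) or 2 (-0.84), or Nf1-KO injured library 1 (-0.69) or 2 (-0.57). Adamts3, at 0 to 1.79 CPM in all libraries, was not called.

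Adamts12 and Adamts7 form a pair that cleaves cartilage oligomeric matrix protein. Adamts12 (ENSMUSG00000047497, chromosome 15, 11064790 to 11349231) had 32.7, 22.6 and 45.5 CPM in Nf1-KO injured skin, against 3.67, 3.22 and 5.24 CPM in Nf1-KO uninjured skin. It had 17.4, 23.1 and 24.3 CPM in control injured skin, against 5.93, 3.07 and 3.09 CPM in control uninjured skin. Injured libraries were higher without overlap, by 3.06 ± 0.33 (adjusted p = 4.41e-06) on the log2 scale in Nf1-KO and 2.44 ± 0.32 (adjusted p = 3.76e-05) in control skin. Adamts7 (ENSMUSG00000032363, chromosome 9, 90163069 to 90208071) had 7.05, 4.94 and 14.5 CPM in Nf1-KO injured skin, against 2.42, 3.45 and 2.71 CPM in Nf1-KO uninjured skin. The control levels of Adamts7 were 3.82, 6.90 and 4.81 CPM when injured, against 5.64, 3.84 and 3.98 CPM when uninjured. The groups overlapped in control skin and not in Nf1-KO skin. The log2 fold change of Adamts7 was 1.62 ± 0.40 (adjusted p = 0.00553) in Nf1-KO and 0.22 ± 0.39 (adjusted p = 0.659) in control skin. Adamts13, which cleaves von Willebrand factor, was not called, with 0.134 to 1.24 CPM in injured and 0.568 to 2.45 CPM in uninjured libraries.

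Of the remaining 6 Adamts genes, 5 were called higher in Nf1-KO skin, against 19.1% of all genes tested, and 2 in control skin, against 22.8%. Adamts10 (ENSMUSG00000024299, chromosome 17, 33524204 to 33553782), a protein of fibrillin microfibrils, had 18.5, 12.2 and 25.2 CPM in Nf1-KO injured skin, against 5.11, 3.14 and 5.87 CPM in Nf1-KO uninjured skin. It had 12.9, 10.1 and 11.2 CPM in control injured skin, against 7.05, 6.98 and 5.11 CPM in control uninjured skin. Injured libraries were higher without overlap in both genotypes. The log2 fold change was 1.99 ± 0.31 (adjusted p = 0.00016) in Nf1-KO and 0.84 ± 0.30 (adjusted p = 0.0273) in control skin, where the call was lost without control uninjured library 3 (0.80) or control injured library 1 (0.77). Adamts6 (ENSMUSG00000046169, chromosome 13, 104287835 to 104496695), the closest relative of Adamts10, had 2.69, 2.96 and 7.83 CPM in Nf1-KO injured skin, against 2.15, 1.46 and 1.17 CPM in Nf1-KO uninjured skin. Control skin had 2.40, 1.96 and 1.14 CPM when injured, against 2.35, 2.46 and 1.26 CPM when uninjured. Nf1-KO injured library 3 was the highest of all, and the control groups overlapped. Adamts6 rose by 1.48 ± 0.50 (adjusted p = 0.0301) on the log2 scale in Nf1-KO skin and had -0.14 ± 0.50 (adjusted p = 0.831) in control skin. The Nf1-KO call was lost without Nf1-KO injured library 3 (0.84) or Nf1-KO uninjured library 2 (1.37) or 3 (1.34).

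Adamts18 rose by 1.43 ± 0.32 (adjusted p = 0.00294) in Nf1-KO and 0.92 ± 0.32 (adjusted p = 0.0231) in control skin on the log2 scale, the control call being lost without control uninjured library 2 (0.96) or 3 (0.76) or control injured library 1 (0.85). Adamts16 rose by 2.13 ± 0.67 (adjusted p = 0.0213) in Nf1-KO skin, lost without Nf1-KO injured library 3 (1.62) or Nf1-KO uninjured library 1 (1.78) or 3 (2.06). The Nf1-KO groups overlapped for Adamts16, with 0.705 CPM in Nf1-KO injured library 2 and 1.23 CPM in Nf1-KO uninjured library 2. Its log2 fold change in control skin was 0.12 ± 0.64 (adjusted p = 0.89) and was not called. In uninjured libraries Adamts16 lay at 0.358 to 1.88 CPM, at or below the nose receptor background in 3 of 6. Adamts17, the closest relative of Adamts19, rose by 1.31 ± 0.43 (adjusted p = 0.0249) in Nf1-KO skin, lost without Nf1-KO injured library 3 (0.77) or Nf1-KO uninjured library 1 (1.07) or 2 (1.26). Adamts19 had 0.570 to 2.21 CPM in injured and 0.361 to 1.41 CPM in uninjured libraries and was not called.

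Of the 4 inhibitors, Timp1, Timp2 and Timp3 rose in both genotypes, and Timp1 had the largest log2 fold change of the 41 tested members in each on the counts as deposited. With the nose receptor background subtracted it was still the largest among the called members in control skin, whereas in Nf1-KO skin Adamts16, Mmp10 and Mmp12 (5.64) exceeded Timp1 (4.81), the Nf1-KO uninjured counts of Adamts16 and Mmp10 being at 0 after subtraction. Timp1 (ENSMUSG00000001131, chromosome X, 20870166 to 20874735), a secreted inhibitor of most Mmp enzymes and a known growth factor for some cells, had 62.3, 48.0 and 141 CPM in Nf1-KO injured skin, against 2.06, 0.690 and 5.96 CPM in Nf1-KO uninjured skin. It had 60.0, 82.3 and 46.9 CPM in control injured skin, against 0.376, 0.921 and 6.75 CPM in control uninjured skin. The gap between injured and uninjured libraries was wide in both genotypes, and the uninjured libraries numbered 3 were the highest uninjured ones. Timp1 rose 29.2-fold in Nf1-KO skin, log2 4.87 ± 1.03 (adjusted p = 0.00678), and 22.2-fold in control skin, log2 4.47 ± 1.01 (adjusted p = 0.00529). Without the uninjured library 3 of the genotype, the log2 fold change was 5.98 in Nf1-KO and 6.66 in control skin. Timp1 lies on the X chromosome, and the injured libraries carried Xist and no more than 1 count of Ddx3y.

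Timp2 (ENSMUSG00000017466, chromosome 11, 118301069 to 118355740), which both blocks Mmp2 and assists Mmp14 in activating it, had 346, 299 and 456 CPM in Nf1-KO injured skin, against 165, 90.6 and 109 CPM in Nf1-KO uninjured skin. It had 240.4, 440.3 and 396 CPM in control injured skin, against 135, 131 and 156 CPM in control uninjured skin. Every injured library was higher, by a log2 fold change of 1.60 ± 0.27 (adjusted p = 0.000295) in Nf1-KO and 1.35 ± 0.27 (adjusted p = 0.000762) in control skin. Timp3 (ENSMUSG00000020044, chromosome 10, 86300372 to 86349506) binds to the matrix and also blocks ADAM and ADAMTS enzymes. It had 388, 371 and 423 CPM in Nf1-KO injured skin, against 196, 146 and 151 CPM in Nf1-KO uninjured skin, and 305, 281 and 301 CPM in control injured skin, against 163, 155 and 209 CPM in control uninjured skin. The groups did not overlap, and Timp3 rose by 1.26 ± 0.20 (adjusted p = 0.000143) in Nf1-KO and 0.75 ± 0.19 (adjusted p = 0.00416) in control skin on the log2 scale. Exons of Syn3 on the other strand cover 21.3% of the Timp3 exons. Timp4 (ENSMUSG00000030317, chromosome 6, 115241892 to 115252205), an inhibitor best known from heart, had 4.04, 7.48 and 9.81 CPM in Nf1-KO injured skin, against 7.88, 6.05 and 5.15 CPM in Nf1-KO uninjured skin. In control skin Timp4 had 9.33, 17.3 and 7.42 CPM when injured, against 11.004, 6.14 and 3.72 CPM when uninjured. The groups overlapped in both genotypes, and the log2 fold changes of 0.15 ± 0.42 (adjusted p = 0.793) in Nf1-KO and 0.72 ± 0.42 (adjusted p = 0.155) in control skin were not called. Without control uninjured library 1 the control value was 1.31 and was called.

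Fibroblast markers moved with these rises, with 8 of 8 called higher in each genotype and none at 0. Their summed level was 9744 to 18343 CPM in Nf1-KO injured and 1018 to 2552 CPM in Nf1-KO uninjured skin, and 6045 to 16924 CPM in control injured and 1608 to 3439.5 CPM in control uninjured skin, with the highest sum in Nf1-KO injured library 3. Among other markers, 9 of 9 tested genes of the growing hair follicle, 6 of 6 of mast cells and 5 of 5 of adipocytes rose in each genotype, and 5 of 6 of blood endothelium rose in Nf1-KO and 4 of 6 in control skin. Hair follicle markers summed to 8745 to 29233 CPM in injured and 21.6 to 92.0 CPM in uninjured libraries, mast cell markers to 192 to 363 and 11.9 to 29.8, adipocyte markers to 819 to 1825 and 46.8 to 218, and endothelial markers to 129 to 264 and 49.6 to 97.2 CPM in the same libraries, and no mean was at 0. Skeletal muscle markers rose in 6 of 6 in Nf1-KO and 5 of 6 in control skin, with sums of 2140.3 to 8361 CPM in injured and 103 to 980.0 CPM in uninjured libraries. Beside all marker counts given here, 19.1% of all genes tested were called higher and 18.4% lower in Nf1-KO skin. The shares in control skin were 22.8% and 32.5%. The part of these cell types in the changes of the protease and inhibitor genes was not tested.

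Per length of transcript, a handful of genes made up most of the level of the 45 members. In injured skin Mmp2 had the highest mean, 111 ± 47.2 CPM per kb in Nf1-KO and 103 ± 50.1 in control skin (SD, n = 3 each). Timp1 had 94.5 ± 56.6 in Nf1-KO and 71.0 ± 20.2 in control injured skin, and Timp2 had 94.2 ± 20.7 and 92.1 ± 27.0 CPM per kb in the same groups, all within 1 SD of the Mmp2 mean. Mmp14 and Mmp3 were the next in both genotypes. In uninjured skin Timp2 had the highest mean, with 31.1 ± 9.90 CPM per kb in Nf1-KO and 36.1 ± 3.53 in control skin, ahead of Mmp2, with 20.8 ± 6.46 and 22.7 ± 1.23, and Timp3, with 20.2 ± 3.36 and 21.6 ± 3.61, in the same groups. Timp1 made up 10.2% to 18.02% of the summed CPM per kb of the members in injured and 0.284% to 3.598% in uninjured libraries. Timp3 made up 4.95% to 10.6% in injured and 9.84% to 15.4% in uninjured libraries, while its own level was higher in every injured library. Adamts1 made up 1.16% to 2.41% in injured and 3.65% to 11.7% in uninjured libraries. The summed level of the Mmp genes was 325 ± 137 CPM per kb in Nf1-KO injured and 74.2 ± 28.9 in Nf1-KO uninjured skin, and 303 ± 95.5 in control injured and 77.4 ± 18.3 in control uninjured skin (SD, n = 3 each). For the Timp genes the sum was 238 ± 80.7 CPM per kb in Nf1-KO injured and 55.7 ± 13.6 in Nf1-KO uninjured skin, and 201 ± 38.2 in control injured and 61.9 ± 10.6 in control uninjured skin. For the Adamts genes it was 57.4 ± 18.1 in Nf1-KO injured and 26.2 ± 2.78 in Nf1-KO uninjured skin, and 43.9 ± 3.72 in control injured and 29.4 ± 8.67 in control uninjured skin. The Timp genes made up 34.9% to 41.3% of the sum of all members in injured and 28.6% to 42.8% in uninjured libraries, and the Mmp genes 49.1% to 58.2% in injured and 41.8% to 55.9% in uninjured libraries, with overlap in both families. The Adamts genes made up 6.90% to 9.80% in injured and 14.7% to 20.8% in uninjured libraries, without overlap.

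**Figure D4:**
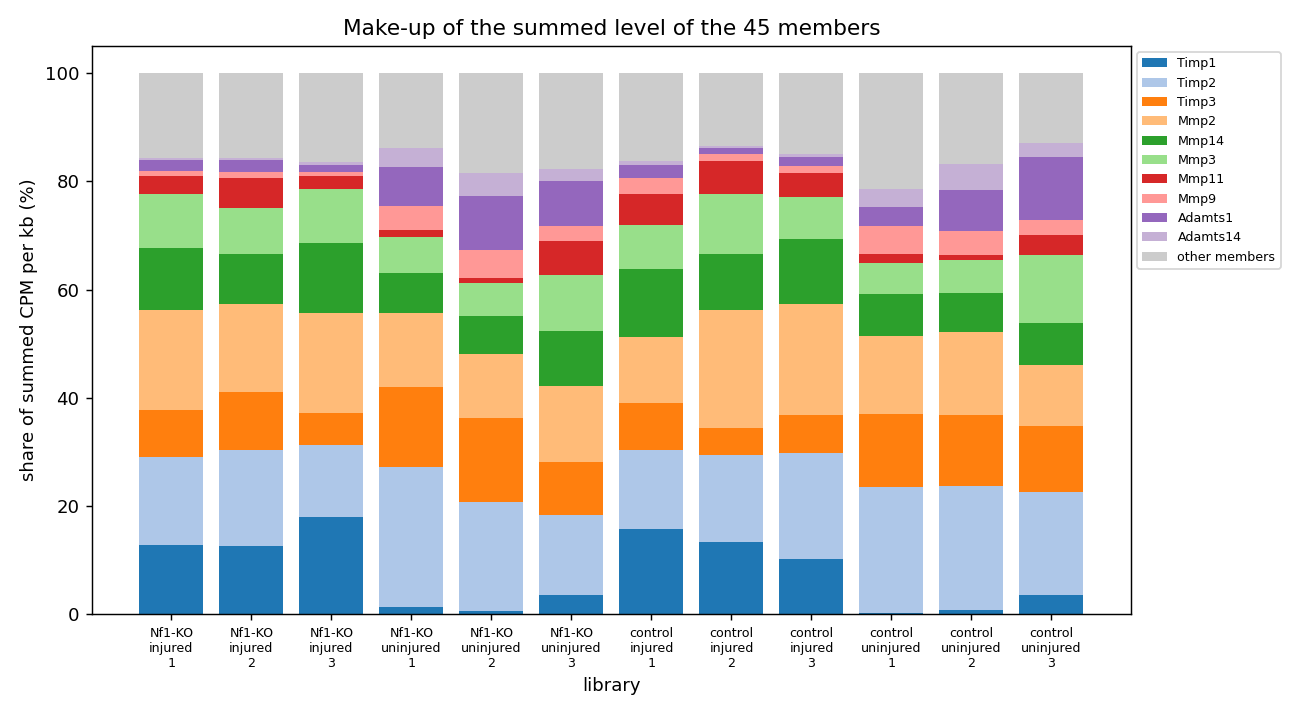
Share of each gene in the summed level of the 45 members, in percent of CPM per kb of exon, with 1 bar per library and the 35 members outside the legend pooled in grey. The Timp1 segment at the foot of the bars is wide in the 6 injured libraries and thin in the 6 uninjured ones, and the Adamts1 and Adamts14 segments are thin in the injured ones.

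Between the genotypes, no member was called in uninjured skin, where 0.0296% of all genes were called (0.0254% higher and 0.00423% lower), and edgeR, DESeq2 and limma voom each called 0 of them. At an unadjusted p under 0.05 there were 2 members (4.88%), against 8.34% of all genes. For 2 members, Adamts7 and Adamts8, Nf1-KO and control libraries did not overlap, against 14.8% of all genes. The 3 members with the smallest p were Mmp24, Adamts5 and Mmp10. Mmp24 had 12.5, 8.66 and 18.8 CPM in Nf1-KO uninjured skin, against 9.22, 8.21 and 9.47 CPM in control uninjured skin, a log2 fold change of 0.57 ± 0.26 (adjusted p = 0.583). Adamts5 had 8.33, 4.75 and 7.05 CPM in Nf1-KO uninjured skin, against 13.9, 8.44 and 7.45 CPM in control uninjured skin, a log2 fold change of -0.56 ± 0.26 (adjusted p = 0.588). Mmp10 had 0, 0.306 and 0 CPM in Nf1-KO uninjured skin, against 0.658, 0.230 and 0.505 CPM in control uninjured skin, a log2 fold change of -1.97 ± 0.95 (adjusted p = 0.612). The libraries of the genotypes overlapped for each of these genes.

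In injured skin, Nf1-KO against control, 0 members and 0% of all genes were called by edgeR, and DESeq2 and limma voom also called 0 members. At an unadjusted p under 0.05 there were 9 members (22%), against 10.7% of all genes, with Mmp8, Mmp15, Mmp17, Adamts6, Adamts10, Adamts12 and Timp3 above 0 and Mmp9 and Mmp10 below. Nf1-KO and control libraries did not overlap for 5 members, Mmp10, Mmp13, Adamts6, Adamts18 and Timp3, against 9.05% of all genes. Mmp9 had 18.5, 16.9 and 25.0 CPM in Nf1-KO injured skin, against 44.6, 29.5 and 21.9 CPM in control injured skin, a log2 fold change of -0.67 ± 0.25 (adjusted p = 0.371). Adamts6 had 2.69, 2.96 and 7.83 CPM in Nf1-KO injured skin, against 2.40, 1.96 and 1.14 CPM in control injured skin, a log2 fold change of 1.29 ± 0.50 (adjusted p = 0.38). Mmp8 had 0.128, 1.199 and 3.44 CPM in Nf1-KO injured skin, against 0.533, 0.253 and 0.334 CPM in control injured skin, a log2 fold change of 2.07 ± 0.81 (adjusted p = 0.387). Adamts6 did not overlap, whereas Mmp9 and Mmp8 did, Mmp8 through Nf1-KO injured library 1. Mmp13, with 8.47 ± 0.359 CPM in Nf1-KO and 23.1 ± 4.27 CPM in control injured skin (SD, n = 3 each), had a log2 fold change of -1.45 ± 0.81 (adjusted p = 0.598), and Timp3 one of 0.41 ± 0.19 (adjusted p = 0.462). Over the 41 members, 32 log2 fold changes were above 0 in injured skin, Nf1-KO over control, and 10 in uninjured skin. The median in injured skin was 0.33 for the members and 0.12 for all genes tested. In uninjured skin the medians were -0.20 for the members and -0.04 for all genes tested. Nf1-KO injured library 3 alone was the highest injured library for 28 of the 41 members, and control uninjured library 1 the highest uninjured library for 17.

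**Figure D5:**
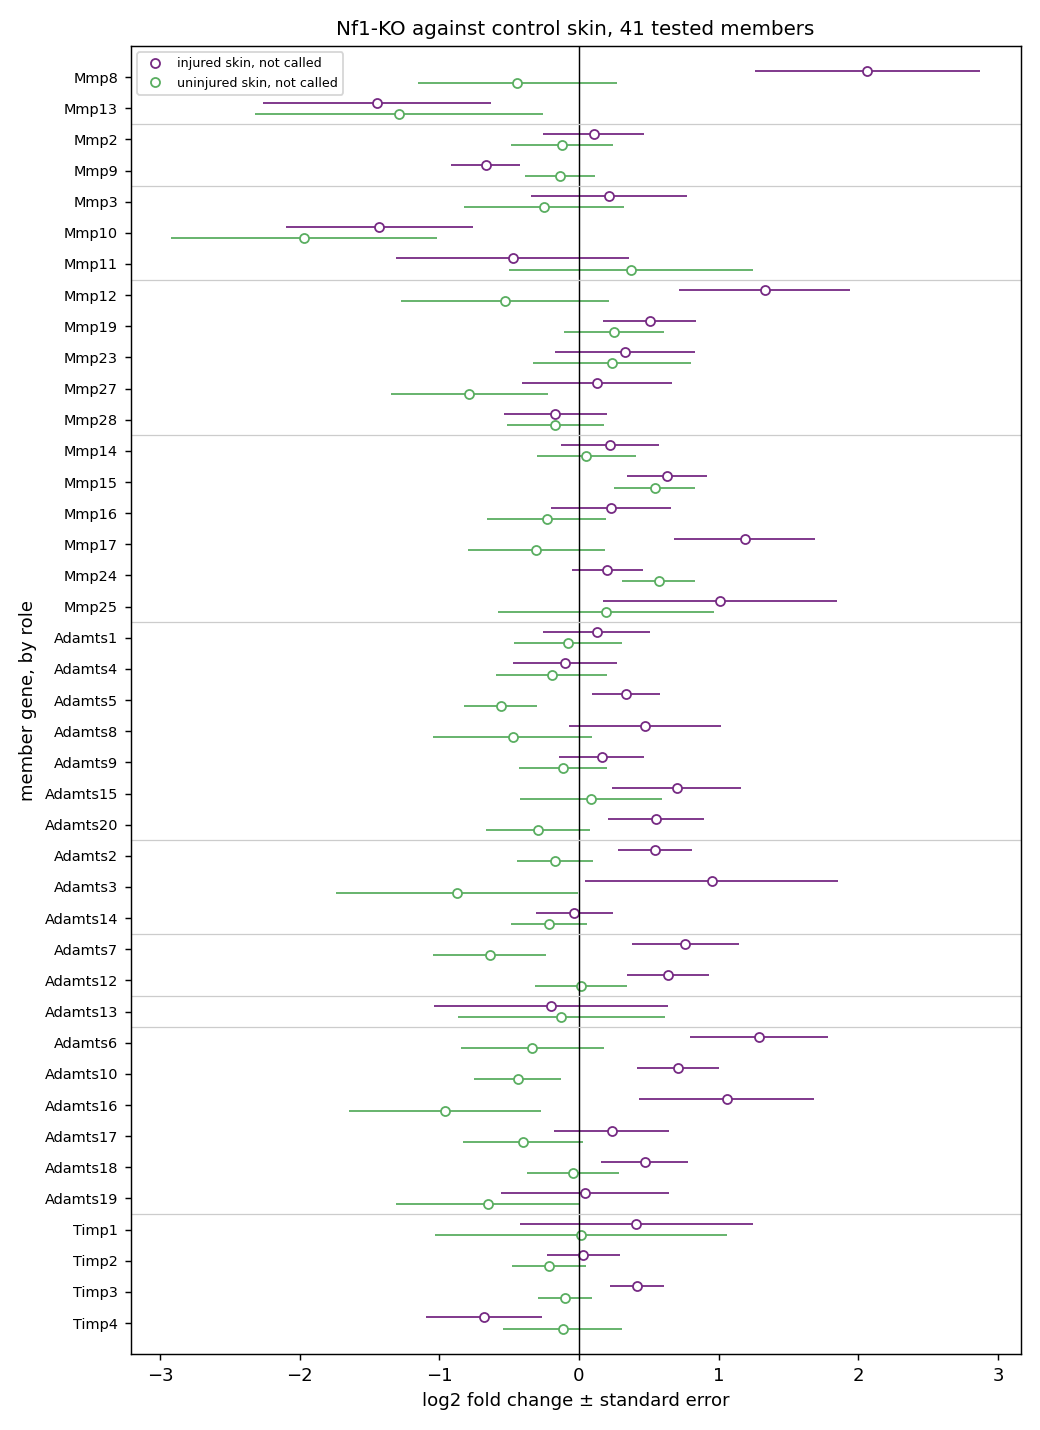
Log2 fold change of Nf1-KO over control skin with its standard error for the 41 tested members, grouped by role, in injured (purple) and uninjured (green) skin. All points are open because 0 members were called, and the standard errors of Mmp10, Mmp13 and Timp1 are among the widest.

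The difference between the injury responses, Nf1-KO minus control, was not called for any member or for any other gene (0% of all genes). DESeq2 and limma voom also called 0 members, and 6 (14.6%) had an unadjusted p under 0.05, against 10.8% of all genes. The smallest p belonged to Adamts10, Adamts5 and Adamts7, whose values in every library are given above. The difference was 1.15 ± 0.43 (adjusted p = 0.442) for Adamts10, 0.90 ± 0.36 (adjusted p = 0.445) for Adamts5 and 1.40 ± 0.56 (adjusted p = 0.445) for Adamts7 on the log2 scale. The response of Timp1 differed by 0.40 ± 1.32 (adjusted p = 0.934) and that of Mmp12 by 1.86 ± 0.96 (adjusted p = 0.507). The median difference over the 41 members was 0.51, against 0.17 over all genes.

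Other genes of the pathway were counted from lists chosen with earlier results of these data known. Of all genes tested, 37.4% were called after injury in Nf1-KO skin, 19.1% higher and 18.4% lower. In control skin 55.3% were called, 22.8% higher and 32.5% lower. Of 12 tested activators, regulators and clearance receptors, 8 rose and 1 fell in Nf1-KO skin and 9 rose and 1 fell in control skin. Pcsk5, a proprotein convertase, rose by log2 3.72 (adjusted p = 5.52e-06) in Nf1-KO and 2.88 (adjusted p = 4.61e-05) in control skin, whereas Pcsk6, of the same enzyme family, fell, with log2 fold changes of -1.33 (adjusted p = 0.00141) in Nf1-KO and -1.36 (adjusted p = 0.000805) in control skin. Furin had 0.27 (adjusted p = 0.339) in Nf1-KO and 0.00 (adjusted p = 0.997) in control skin and was not called. Plat, the tissue activator of plasminogen, rose by 2.81 (adjusted p = 3.45e-06) in Nf1-KO and 2.36 (adjusted p = 1.79e-05) in control skin, and Reck, a membrane inhibitor of Mmp enzymes, by 1.80 (adjusted p = 0.000162) in Nf1-KO and 1.35 (adjusted p = 0.00106) in control skin. Lrp1, the receptor that clears protease and inhibitor complexes, rose by 1.93 (adjusted p = 1.13e-05) in Nf1-KO and 1.38 (adjusted p = 0.000194) in control skin. Of 16 substrates, 12 rose in each genotype and none fell, among them Eln (elastin), by 4.28 (adjusted p = 1.34e-05) in Nf1-KO and 4.39 (adjusted p = 1.37e-05) in control skin, and Vcan (versican), by 3.33 (adjusted p = 3.44e-06) in Nf1-KO and 3.17 (adjusted p = 7.15e-06) in control skin. Of 8 ADAM sheddases, 3 rose and none fell in Nf1-KO skin and 3 rose and 2 fell in control skin, with Adam12, Adam19 and Adam33 higher in both and Adam9 and Adam17 lower in control skin. The share of sheddases called was near that of all genes in both genotypes. Of 7 ADAMTS-like genes, which lack the protease domain, 2 rose and 2 fell in Nf1-KO skin and 3 fell in control skin, with Papln at -1.73 (adjusted p = 0.000817) in Nf1-KO and -2.60 (adjusted p = 3.68e-05) in control skin. No gene of these 4 lists was called between the genotypes or in the difference of the responses.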

How the data were processed

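Whole mouse skin was sequenced in bulk as 12 samples, 3 in each of 4 groups named by the labels. Per the labels' protocols, RNA was extracted with a fibrous tissue kit, 10 ng were amplified with a SMART-Seq v4 kit, and libraries were made with Nextera XT, which does not mark the strand. The deposited values are whole-number read counts per Ensembl gene, and per the submitters' processing notes the reads went through tools that include STAR 2.5.2b and HTSeq 0.5.3, with SAMtools, HOMER and DESeq2 also named, on mm10. How the authors treated reads of overlapping genes is not given in any source used here; such reads, and those from close copies, may have been dropped or split. Of 53379 gene IDs, 53274 were found in GENCODE M21, whose GRCm38 assembly is the one mm10 names. The 30 sample columns that stood in several tables were equal in each, and 1 column of no listed sample was not used. No libraries of a group agreed within sampling noise (chi-square per degree of freedom 9.55 to 87.8), so none was counted as a repeat deposit of another. That does not show separate animals.

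From the counts, edgeR 4.0.16 (R 4.3.3) fitted 1 mean per group over all 12 libraries with TMM scaling, its expression filter at a minimum count of 10 and the robust quasi-likelihood test, with Benjamini-Hochberg adjustment over the 23635 genes kept. Before use, the fit was run on simulated counts with the same dispersion for every gene and no background difference between groups. That does not test it under the spread and background of these libraries. Levels are TMM-scaled CPM and, between genes, CPM per kb of joined exons, and n is 3 in each group. Injury was tested within each genotype, Nf1-KO against control within each state, and the injury responses against each other. The responses share no libraries, but each group enters more than 1 comparison. Alternatives were DESeq2 1.42.0, limma 3.58.1 (voom), median-of-ratios scaling, other filters, the 6 compared libraries alone, the replicate number as a block, a ribosomal RNA-like covariate and leaving out libraries, and, chosen after seeing the data, subtracting the nose receptor background per kb. Values in every library are printed for the Timp genes, for called members with a mean of at least 1 CPM and no overlap, up to 12 rises and 12 falls by size, and for the 3 smallest p between genotypes. Adamts1 and Mmp3 were added after their values were seen. The members, lists and motifs were chosen with earlier results of these data known. Promoter windows are from RefSeq on GRCm38.p6.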

Additional observations from a re-analysis of the deposited data

How the results depend on the processing

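Over all alternatives, no member was called between the genotypes or in the difference of the injury responses. After injury in control skin, 22 members were called higher and 3 lower. Leaving out 1 library at a time gave 19 to 23 higher and 3 to 4 lower, no filter gave 5 lower, the ribosomal RNA-like covariate gave 15 higher and 5 lower, and leaving out control uninjured libraries 1 and 2 together gave 11 higher. In Nf1-KO skin, with 24 higher and 2 lower, leaving out 1 library gave 19 to 24 higher and 1 to 2 lower, the covariate gave 17 higher and 3 lower, and the 6 compared libraries alone gave 1 lower. The cause of these shifts was not tested, except that fewer libraries leave fewer degrees of freedom. Timp4 in Nf1-KO skin, not called at 0.15, ran from -0.15, its only reversed value, without Nf1-KO injured library 3 to 0.48 without Nf1-KO injured library 1. With the replicate number as a block, 22 members were higher and 3 lower in control skin and 25 higher and 2 lower in Nf1-KO skin. Libraries of the same number deviated with correlations of -0.103 to 0.380, not all above 0.1 in any comparison. Not every library was most alike to its own number. Between the genotypes in uninjured skin, libraries 2 (0.380) and 3 (0.217) had the highest correlations of that comparison, and libraries 1 had -0.103. Whether libraries of a number share more than the number cannot be told from these values.

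Among single members, the ribosomal RNA-like covariate lost the calls of Mmp3, Mmp11, Mmp12, Mmp24, Adamts9, Adamts10 and Adamts18 in control skin and of Mmp3, Mmp13, Adamts6, Adamts7, Adamts9, Adamts16 and Adamts17 in Nf1-KO skin. Without control uninjured libraries 1 and 2, the calls of Timp1 (3.23), Timp2 (1.2), Timp3 (0.50), Mmp3, Mmp8, Mmp10, Mmp11, Mmp12, Mmp24, Adamts4, Adamts10, Adamts14 and Adamts15 in control skin were lost. The compared libraries alone lost Adamts18 in control and Adamts6, Adamts14, Adamts16 and Adamts17 in Nf1-KO skin, the filter of 2 CPM lost Adamts9 and Adamts18 in control skin, limma voom lost Adamts16, and no filter and the subtracted background each lost Mmp13 in Nf1-KO skin. Subtracting the background raised the log2 fold change of Mmp12 to 5.64 in Nf1-KO and 3.78 in control skin. Timp4 was called in control skin with no filter (0.92).

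Over all genes, 13072 were called after injury in control skin but 6164 when control uninjured libraries 1 and 2 were dropped. In Nf1-KO skin 8851 were called, but 5804 with the ribosomal RNA-like covariate and 5647 without Nf1-KO uninjured library 2. Of these calls 41.3% were higher in control skin by edgeR and 29.8% by DESeq2, and 50.9% and 39.7% in Nf1-KO skin. Between the genotypes, 7 genes were called in uninjured skin, against 219 with no filter, 60 by DESeq2 and 27 in the compared libraries alone. In injured skin the 0 became 410 with no filter, 124 by DESeq2, and 57 or 89 without Nf1-KO injured library 1 or 2, and the 0 of the difference became 236 and 37. Median-of-ratios scaling moved the median of all genes by -0.107 for injury in Nf1-KO skin and left the direction of every called member as it was. Counts near the nose receptor background limit Mmp10, Mmp13, Mmp12, Adamts6 and Adamts16 in uninjured skin, with medians under 2 times that background. Other called members had medians of 2 to 5 times it and are limited less. They were Adamts17 (2.28), Adamts20 (2.42), Adamts12 (2.43), Adamts15 (2.65), Adamts18 (2.66), Adamts7 (3.30), Adamts9 (3.49), Adamts10 (4.54) and Adamts4 (4.87).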

Other observations

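Markers of the Schwann lineage, which boundary cap cells give rise to, were counted as well. Of 6 tested, 1 rose and 1 fell in injured against uninjured Nf1-KO skin, and 4 fell and none rose in control skin. None was called between the genotypes or in the difference of the responses. Their summed level was 109.5 to 205 CPM in Nf1-KO injured and 157 to 317 CPM in Nf1-KO uninjured skin, and 64.5 to 79.1 CPM in control injured and 194 to 226 CPM in control uninjured skin.

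Several members share exons with a gene on the other strand, which these libraries cannot separate. The shared part was 13.6% of the Mmp24 exons (BC029722), 12.03% of the Mmp28 exons (1700020L24Rik), 10.6% of the Adamts8 exons (Gm29724), 9.18% of the Adamts9 exons (A730049H05Rik) and 5.58% of the Mmp11 exons (Chchd10). Mmp1b and Mmp12 share 157 exonic bases, 10.8% of Mmp1b and 2.17% of Mmp12.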
